A study of Homo sapiens with 4 samples.

Results

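The RNAs described here are the long intergenic and antisense noncoding RNAs that CAL27 cells held above a set level. They were chosen by gene symbol, either LINC followed by digits or a name ending in -AS and a digit, and by a mean of at least 1 FPKM over 4 libraries, with OIP5-AS1 left out. FPKM is a count scaled by the exonic length of the gene and by the library total. The rule found 236 RNAs, 101 with a LINC symbol and 135 with an antisense symbol, among 12168 genes at that level and 29437 genes listed in the tables. Another 1396 genes with such symbols had a lower mean. Since the mean level chose the members, levels are given as a description, and tests concern only the difference between the groups.

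The libraries fall into a CCL20-overexpression group and a negative control group, 2 each, of CAL27, a cell line long established from a human oral squamous cell carcinoma. CCL20 is a secreted chemokine, and the overexpressing line was made with a lentivirus; the labels do not say what the control cells carried. Polyadenylated RNA was harvested after 48 hours, and total counts lay between 13681862 and 17860695 per library. Nothing says that the 2 libraries of a group came from separate cultures, so p-values measure only the spread between these libraries.

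CCL20 had 15.2 and 11.3 FPKM in the overexpression libraries, against 8.62 and 7.10 FPKM in the control libraries. Its log2 fold change was 0.95 (SE 0.21, adjusted p = 0.0143 by edgeR's quasi-likelihood test with Benjamini-Hochberg adjustment over all tested genes), and 0.49 with the correction for exonic length described below (adjusted p = 0.171). Without negative control replicate 1 or 2 the edgeR adjusted p of CCL20 was 0.0945 and 0.197. Of 7 squamous epithelium markers 6 reached 1 FPKM, all but KRT14. Markers of other cell types at that level were COL1A1 of 6 for fibroblasts, CD14 of 5 for immune cells and CDH5 of 4 for endothelium. The summed level of the fibroblast list was 2.32 and 2.93 FPKM in the overexpression libraries, against 3.79 and 4.36 FPKM in the control libraries. That of the endothelium list was 5.27 and 5.10 FPKM, against 8.81 and 8.23 FPKM in the control libraries. The immune list went the other way, with 1.35 and 1.99 FPKM, against 1.20 and 1.27 FPKM in the control libraries. Each sum rested mostly on 1 gene, with means over the 4 libraries of 2.72 FPKM for COL1A1, 6.75 FPKM for CDH5 and 1.28 FPKM for CD14. The part of such cells in the results was not tested. The overexpression libraries differed more from each other (chi-square per gene 38.0) than the control libraries did (6.45).

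A long noncoding RNA is a transcript with little or no protein-coding capacity. By their name LINC genes lie between coding genes. Antisense genes lie on the strand opposite a coding gene and often start beside it, so that both are transcribed away from a shared promoter. Some such RNAs act on the gene next to them, some act elsewhere in the cell, some only carry small nucleolar RNAs in their introns, and most have no known function.

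The stretches between the start of a noncoding RNA and that of its divergent neighbour are shown for 5 pairs, because the values of both genes of these pairs are set side by side below. They are sequences of the RefSeq promoter table of GRCh38.p14, which holds 153 of the 236 members by symbol, between GENCODE start sites, written 5′ to 3′ on the strand of the noncoding RNA. Capitals mark a GC box, a CCAAT box or an NRF1 motif on either strand. The letters searched for the GC box were GGGCGG. The CCAAT box is the motif its name spells, and the NRF1 motif, given by name, is the last run of capitals in the LINC00205 line. The marked matches do not overlap.
URB1-AS1 and URB1, chr21:32393027-32393129, plus strand: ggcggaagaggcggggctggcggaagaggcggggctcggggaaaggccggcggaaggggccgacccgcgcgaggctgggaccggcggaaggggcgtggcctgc
TRIM52-AS1 and TRIM52, chr5:181261140-181261211, plus strand: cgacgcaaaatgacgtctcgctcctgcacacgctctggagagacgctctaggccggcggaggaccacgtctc
LINC00205 and POFUT2, chr21:45287899-45288049, plus strand: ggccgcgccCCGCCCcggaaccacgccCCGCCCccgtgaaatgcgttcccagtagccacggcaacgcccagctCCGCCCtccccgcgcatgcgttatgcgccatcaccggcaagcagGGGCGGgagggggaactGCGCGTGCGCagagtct
LINC01137 and ZC3H12A, chr1:37474412-37474551, minus strand: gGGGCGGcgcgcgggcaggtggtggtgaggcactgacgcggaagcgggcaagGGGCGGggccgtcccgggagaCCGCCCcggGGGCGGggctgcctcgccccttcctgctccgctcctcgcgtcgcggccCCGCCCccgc
NCBP2-AS2 and NCBP2, chr3:196942598-196942622, plus strand: ggacCCAATccgaGGGCGGcgtgtc
The stretches were 25 to 151 nt long and 63.9 to 82.9% G and C. The LINC01137 stretch held 5 GC boxes, the LINC00205 stretch 4 GC boxes and 1 NRF1 motif, and the NCBP2-AS2 stretch 1 GC box and 1 CCAAT box. Windows of the same length in 35116 promoters held a GC box in 35.9% for LINC01137, 36.9% for LINC00205 and 9.66% for NCBP2-AS2. They held an NRF1 motif in 4.30% for LINC00205 and a CCAAT box in 2.47% for NCBP2-AS2. The stretches of URB1-AS1 and TRIM52-AS1 held none of these letters, and none of the 5 stretches held an ETS or TATA motif on either strand. The ETS letters searched were CCGGAAG. Those of the TATA box were TATAAA.

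Most members were present at low levels. The median of their mean level was 2.05 FPKM, 116 lay under 2 FPKM, 28 reached 5 FPKM and 5 reached 10 FPKM. Together they took 0.200% and 0.192% of the counts in the overexpression libraries and 0.208% and 0.203% in the control libraries. Of the 236, 185 reached 1 FPKM in both groups, 19 only in overexpression and 32 only in control, so these 51 passed the level rule through the group where they were high. Their differences are bound up with that rule and are given as a description. Fewer than 10 reads in some library lay behind 37 members. By the annotation (GENCODE 29), 102 were typed antisense, 101 lincRNA and 23 processed transcript, and 1, NCBP2-AS2, was typed protein-coding. The rest were typed as transcribed unprocessed pseudogenes (4), transcribed unitary pseudogenes (2) and bidirectional promoter long noncoding RNAs (3).

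The 3 highest members held 14.3% of the summed mean FPKM. LINC00958, a lincRNA at chr11:12961842-12989548 (minus strand, 2870 exonic nt) that has been studied in oral and bladder cancer, had 35.7 and 34.0 FPKM in the overexpression libraries, against 46.1 and 40.1 FPKM in the control libraries. Both overexpression values lay below both control values on that scale, but the groups overlapped on the counts scaled for the test, where the log2 fold change was -0.10 (SE 0.16, edgeR adjusted p = 0.650). NCBP2-AS2, whose transcript encodes a small protein, had 38.0 and 50.8 FPKM in the overexpression libraries, against 26.4 and 25.6 FPKM in the control libraries. It was the highest member that rose (log2 fold change 0.99, SE 0.22, edgeR adjusted p = 0.0134). LRRC75A-AS1, a host of small nucleolar RNAs also named SNHG29, had 33.0 and 31.0 FPKM in the overexpression libraries, against 29.5 and 27.6 FPKM in the control libraries (log2 fold change 0.37, SE 0.16, edgeR adjusted p = 0.107).

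FGD5-AS1 followed with 11.2 and 7.62 FPKM in the overexpression libraries, against 15.5 and 16.5 FPKM in the control libraries (log2 fold change -0.57, SE 0.20, edgeR adjusted p = 0.0566). LINC00973 had 12.9 and 10.0 FPKM in the overexpression libraries, against 9.04 and 10.1 FPKM in the control libraries, with overlapping groups on this scale (edgeR adjusted p = 0.139). The other 5 of the 10 highest passed the threshold of 0.05 as higher. LINC01503, described as a super-enhancer-driven RNA of squamous cancers, had 10.0 and 10.8 FPKM in the overexpression libraries, against 6.97 and 7.06 FPKM in the control libraries (log2 fold change 0.78, SE 0.20, edgeR adjusted p = 0.0225). LINC01137 had 9.20 and 11.3 FPKM in the overexpression libraries, against 4.72 and 6.18 FPKM in the control libraries (log2 fold change 1.11, SE 0.25, edgeR adjusted p = 0.0140). MAPKAPK5-AS1 had 11.7 and 8.41 FPKM in the overexpression libraries, against 5.55 and 6.48 FPKM in the control libraries (log2 fold change 0.94, SE 0.21, edgeR adjusted p = 0.0148). LINC02001 was nearest the threshold, with 9.27 and 11.6 FPKM in the overexpression libraries, against 8.12 and 6.70 FPKM in the control libraries (edgeR adjusted p = 0.0488). TRIM52-AS1 is among the largest rises, below. The groups did not overlap in any of these 5. NCBP2-AS2 and these 5 lost their calls without negative control replicate 1, and all but LINC01137 lost them without negative control replicate 2 (edgeR adjusted p = 0.118 for NCBP2-AS2 in both).

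**Figure D1:**
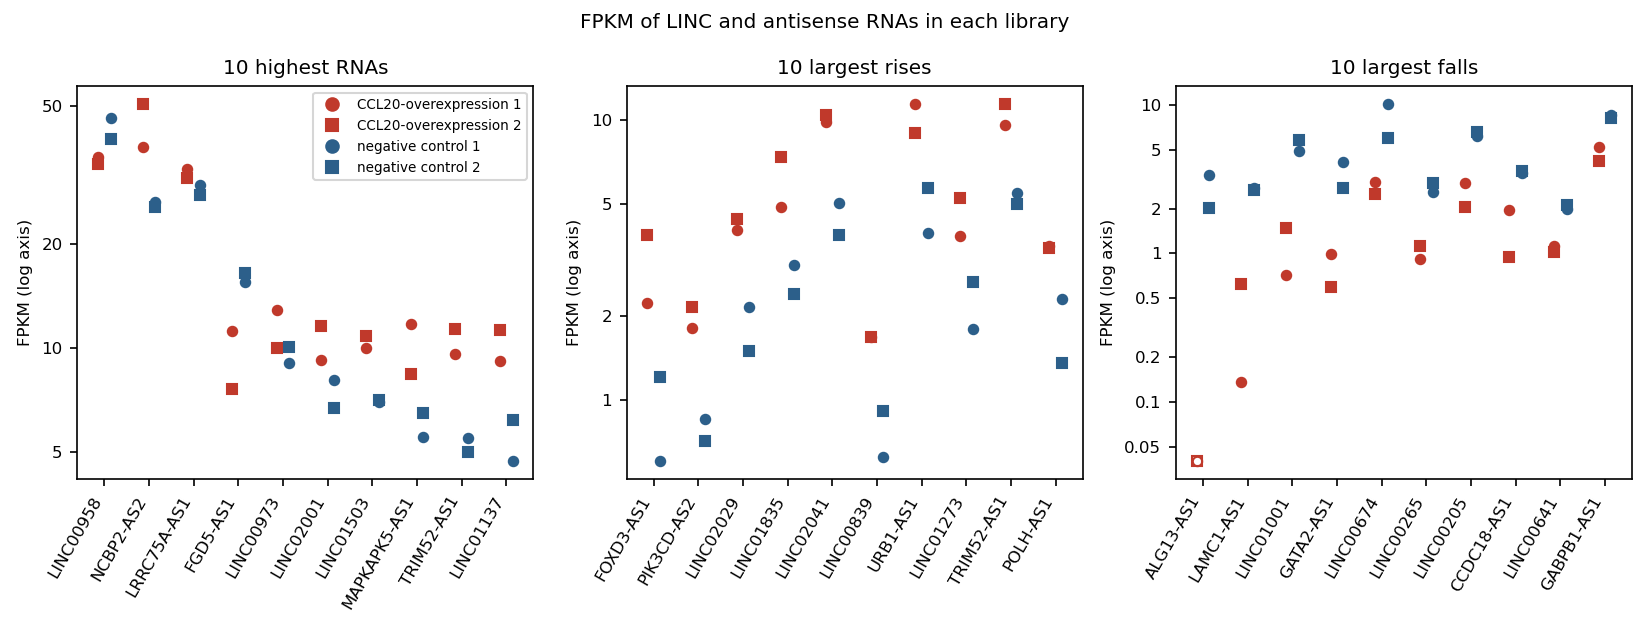
FPKM on a log axis of the 10 highest RNAs, the 10 largest rises and the 10 largest falls past the threshold; each point is 1 library, with CCL20-overexpression (red) left of negative control (blue). NCBP2-AS2 had 38.0 and 50.8 FPKM in the overexpression libraries, against 26.4 and 25.6 FPKM in the control libraries; the hollow points of ALG13-AS1 are values of 0, drawn at the foot of the axis.

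Of the 236 members, 31 rose (13.1%) and 11 fell (4.66%) in the overexpression group by edgeR, where 16.5% of all 12168 tested genes rose and 15.7% fell, 32.2% in either direction. Both shares were smaller than those of all tested genes, that of the falls by more. A list chosen with results known was given no test of this difference. The median of the mean level was 2.05 FPKM over the members and 6.23 FPKM over all tested genes. The part of level in these shares was not tested. Among the members' calls, 4 higher and 3 lower are of members that passed the level rule through 1 group. The LINC RNAs had 16 higher and 5 lower, and the antisense RNAs 15 higher and 6 lower. The median log2 fold change was 0.30 over the members, 0.26 over the LINC RNAs and 0.32 over the antisense RNAs, against 0.00 over all tested genes. Overexpression values lay wholly above control values, on counts scaled for the test, in 105 members (44.5%; 35.8% of all tested genes) and wholly below in 47 (19.9%; 35.8%). The counts depended on single libraries: 1 higher and 2 lower without negative control replicate 1, 3 and 4 without negative control replicate 2, 69 and 21 without overexpression replicate 1, and 55 and 22 without overexpression replicate 2. A fit that lacks a library takes the spread from the pair of the other group. On a TPM scale, where the median of all genes moved to -0.49, 3 members were called higher and 46 lower.

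The largest rise was that of FOXD3-AS1, which overlaps the start of the transcription factor gene FOXD3 on the other strand. In bulk libraries fewer cells holding an RNA and less of it per cell cannot be told apart. FOXD3-AS1 had 2.21 and 3.88 FPKM in the overexpression libraries, against 0.605 and 1.21 FPKM in the control libraries (log2 fold change 1.93, SE 0.48). Its log2 fold change ran from 1.40 without overexpression replicate 2 to 2.54 without negative control replicate 2. PIK3CD-AS2, inside the gene of a PI3-kinase catalytic subunit, had 1.80 and 2.15 FPKM in the overexpression libraries, against 0.856 and 0.716 FPKM in the control libraries (log2 fold change 1.54, SE 0.47). Both, and LINC00839 below, reached 1 FPKM on average only in the overexpression group, so the level rule took them in through the group where they were high. LINC02029 had 4.05 and 4.43 FPKM in the overexpression libraries, against 2.15 and 1.50 FPKM in the control libraries (log2 fold change 1.44, SE 0.31, edgeR adjusted p = 0.0120). FOXD3-AS1, PIK3CD-AS2 and LINC02029 lay at low levels, and in each the higher control library was below the lower overexpression library. LINC01835 had 4.88 and 7.35 FPKM in the overexpression libraries, against 3.02 and 2.39 FPKM in the control libraries, and LINC02041, of only 246 exonic nt, had 9.80 and 10.4 FPKM, against 5.05 and 3.87 FPKM in the control libraries. URB1-AS1 had 11.4 and 8.99 FPKM in the overexpression libraries, against 3.96 and 5.73 FPKM in the control libraries (log2 fold change 1.26, SE 0.28, edgeR adjusted p = 0.0141). TRIM52-AS1, which starts beside a gene of the tripartite-motif ubiquitin ligase family, had 9.60 and 11.4 FPKM in the overexpression libraries, against 5.50 and 5.02 FPKM in the control libraries (log2 fold change 1.21, SE 0.23, edgeR adjusted p = 0.00827). LINC00839, LINC01273 and POLH-AS1 complete the 10, with log2 fold changes of 1.31, 1.23 and 1.17. Without negative control replicate 1 LINC02029 kept its call and the other 9 had edgeR adjusted p between 0.0618 and 0.289; without negative control replicate 2 FOXD3-AS1 and URB1-AS1 kept theirs and the others lay between 0.0796 and 0.396. Without overexpression replicate 2, 8 kept theirs and the other 2 lay at 0.0511 and 0.0513.

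Among the other members that rose, LINC00460, an RNA studied in head and neck cancer, had 2.94 and 2.82 FPKM in the overexpression libraries, against 1.85 and 2.06 FPKM in the control libraries; it was picked after its values were seen. Its log2 fold change was 0.76 (SE 0.21, edgeR adjusted p = 0.0293). LINC00467 had 7.04 and 6.44 FPKM in the overexpression libraries, against 3.99 and 3.89 FPKM in the control libraries (log2 fold change 0.98, SE 0.18, edgeR adjusted p = 0.00740). EPB41L4A-AS1, a host of a small nucleolar RNA, had 6.15 and 6.03 FPKM in the overexpression libraries, against 3.78 and 3.38 FPKM in the control libraries (log2 fold change 0.97, SE 0.19, edgeR adjusted p = 0.00919). In these 3 the libraries of each group lay close together and the groups were apart. Without negative control replicate 1 or 2 the calls of all 3 were lost, at edgeR adjusted p of 0.346 and 0.211 for LINC00460, 0.123 and 0.124 for LINC00467, and 0.112 and 0.158 for EPB41L4A-AS1.

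ALG13-AS1, of 195 exonic nt inside the gene of a glycosylation enzyme subunit, had 0 and 0 counts in the overexpression libraries, against 9 and 7 counts in the control libraries. Taken against a floor of 3 counts per library, its level was at least 2.44-fold lower in the overexpression libraries. LAMC1-AS1, inside the laminin gamma 1 gene, had 0.136 and 0.619 FPKM in the overexpression libraries, against 2.75 and 2.69 FPKM in the control libraries, which rests on 1 and 5 counts against 18 and 23 counts. Its log2 fold change was -2.55 (SE 0.74), and it ran from -4.02 without overexpression replicate 2 to -1.86 without overexpression replicate 1. Both falls rest on few reads, and both RNAs, like GATA2-AS1 below, passed the level rule through the control group alone.

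LINC01001 had 0.715 and 1.47 FPKM in the overexpression libraries, against 4.91 and 5.80 FPKM in the control libraries (log2 fold change -2.07, SE 0.34, edgeR adjusted p = 0.00577). Its log2 fold change ran from -2.75 without overexpression replicate 2 to -1.62 without overexpression replicate 1. Its exons match 13 other genes at 97% or more over at least 300 nt, so its reads cannot be assigned with certainty; LINC00265, which fell with 0.920 and 1.12 FPKM in the overexpression libraries, against 2.60 and 2.97 FPKM in the control libraries, matches 4. GATA2-AS1, on the strand opposite the transcription factor gene GATA2, had 0.998 and 0.597 FPKM in the overexpression libraries, against 4.13 and 2.77 FPKM in the control libraries (log2 fold change -1.91, SE 0.35). LINC00674 had 3.02 and 2.50 FPKM in the overexpression libraries, against 10.2 and 5.95 FPKM in the control libraries (log2 fold change -1.33, SE 0.36, edgeR adjusted p = 0.0267). The control libraries of LINC00674 lay far apart, yet both were above both overexpression libraries. LINC00205 had 2.97 and 2.07 FPKM in the overexpression libraries, against 6.18 and 6.56 FPKM in the control libraries (log2 fold change -1.14, SE 0.20, edgeR adjusted p = 0.00668). GABPB1-AS1, of 17179 exonic nt, had 5.22 and 4.19 FPKM in the overexpression libraries, against 8.59 and 8.15 FPKM in the control libraries (log2 fold change -0.63, SE 0.17, edgeR adjusted p = 0.0240). CCDC18-AS1 and LINC00641 complete the 10 largest falls at -1.09 and -0.74. Without negative control replicate 1 LINC00205 and LINC01001 kept their call and the other 8 of the 10 had edgeR adjusted p between 0.0510 and 0.357; without negative control replicate 2 GATA2-AS1 and LINC00674 also kept theirs and the other 6 lay between 0.0784 and 0.315.

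Fold changes went with gene length in these libraries. The mean gene length per read was 5313 and 5013 nt in the overexpression libraries and 6226 and 6130 nt in the control libraries. The members were short, with a median exonic length of 1936.5 nt, against 4583.5 nt for all tested genes. The members were split by length into 4 equal groups. In the shortest, 195 to 967 nt, the median log2 fold change was 0.52, and it was 0.36 over the 904 tested genes in that range. There 10.2% of the members rose and 5.08% fell, against 15.7% and 8.85% of those genes. The median was 0.48 in the second, 976 to 1931 nt, against 0.78 over the 993 tested genes. In that range 16.9% of the members rose and 0 fell, against 49.6% and 3.32% of those genes. The third, 1942 to 3357 nt, had a median of 0.31, against 0.44 over 2164 genes. Of its members 18.6% rose and 3.39% fell, against 31.3% and 2.31% of those genes. In the longest, 3516 to 27606 nt, the median was 0.03 and 6.78% rose and 10.2% fell. The 7783 tested genes there had a median of -0.21, with 8.17% higher and 22.1% lower. The median of the mean level was 2.25 FPKM over the members and 7.70 FPKM over the tested genes of the second range. In the longest range these levels were 2.10 and 6.27 FPKM. The part of level in these shares was not tested. Across genes, which are not independent replicates, Spearman's rho between log2 fold change and exonic length was -0.21 over the 236 members and -0.50 over all 12168 genes, in the same 4 libraries.

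**Figure D2:**
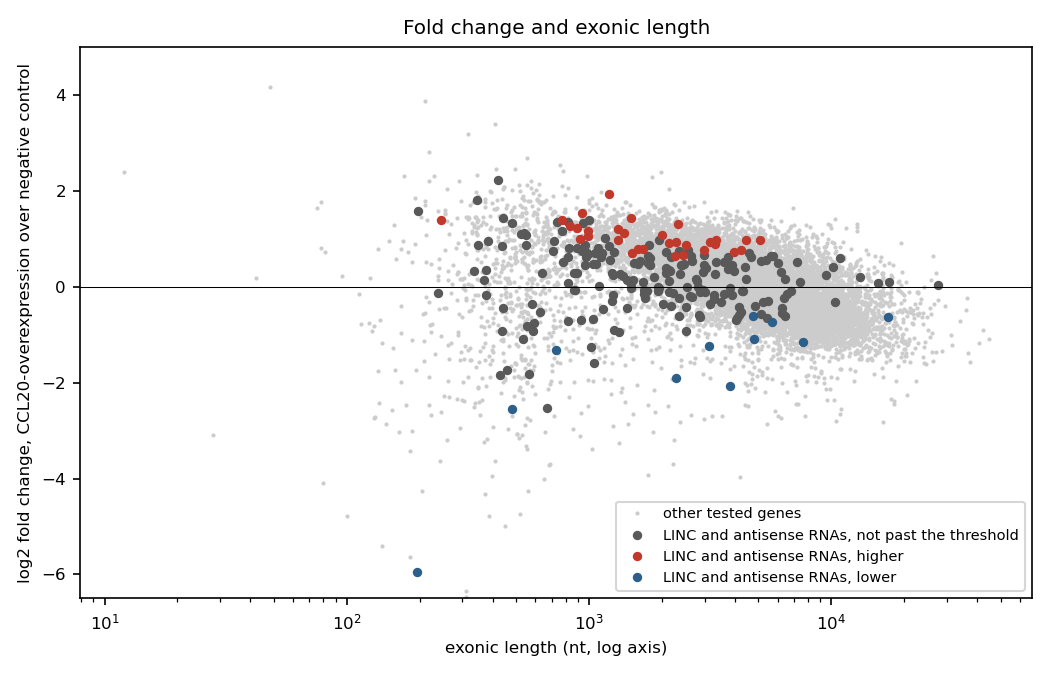
Log2 fold change, CCL20-overexpression over negative control, against exonic length in nt on a log axis; each point is 1 gene, with LINC and antisense RNAs coloured by their edgeR call (threshold 0.05) and other tested genes in light grey, 5 of which lie outside the axis. The cloud of all genes slopes downward (rho -0.50), and the members lie mostly in its left part, where the median lies above 0.

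With exonic length fitted out of each library by a spline, 12 members were higher (5.08%) and 8 lower (3.39%) by edgeR, where 9.95% of all tested genes were higher and 5.93% lower, 15.9% in either direction. The members' median was then 0.04, against 0.02 over all tested genes. A correction by transcript length instead left the members' median at 0.28, against 0.03 over all tested genes. It gave 26 members higher and 10 lower and kept 32 of the 42 uncorrected calls. With the exonic length correction, 11 of those 42 were also calls. These were LINC02041, LINC00476, LINC00467 and EPB41L4A-AS1, which were higher, and LAMC1-AS1, GATA2-AS1, LINC01001, LINC00674, LINC00265, LINC00205 and CCDC18-AS1, which were lower. LINC02041 had a corrected log2 fold change of 1.56 (SE 0.40, edgeR adjusted p = 0.0383) and LINC01001 one of -2.27 (SE 0.33, edgeR adjusted p = 0.00894). LINC00476, GATA2-AS1 and LAMC1-AS1 are among the members that passed the level rule through 1 group. URB1-AS1, TRIM52-AS1 and NCBP2-AS2 did not pass with it, at corrected log2 fold changes of 0.87, 0.74 and 0.56 and edgeR adjusted p of 0.0735, 0.0536 and 0.0830. GABPB1-AS1 changed sign, with a corrected value of 0.06 (edgeR adjusted p = 0.808).

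The correction added 9 calls, 8 of them higher and most in long genes. LINC00511, with 27606 exonic nt the longest member, had 1.03 and 0.932 FPKM in the overexpression libraries, against 1.15 and 1.06 FPKM in the control libraries. Its log2 fold change was 0.03 without the correction and 0.93 with it (SE 0.17), although its FPKM was lower in both overexpression libraries. PAX8-AS1 (17274 nt), LINC02210 (15578 nt) and LINC00963 (13171 nt) went likewise to 0.79, 0.73 and 0.78, with uncorrected values of 0.09, 0.08 and 0.19; a correction by transcript length in place of exonic length left LINC00511, PAX8-AS1 and LINC02210 at -0.14, -0.07 and -0.02. TTC28-AS1, SLC16A1-AS1, RPARP-AS1 and LINC01578, a regulator of the neighbouring chromatin remodeller gene CHD2 that is also named CHASERR, had corrected values of 1.09, 0.87, 0.80 and 0.68. FOXD2-AS1 was lower at -1.34 (SE 0.36), with 0.597 and 0.992 FPKM in the overexpression libraries, against 1.60 and 1.92 FPKM in the control libraries. FOXD2-AS1, LINC00511 and TTC28-AS1 passed the level rule through 1 group.

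**Figure D3:**
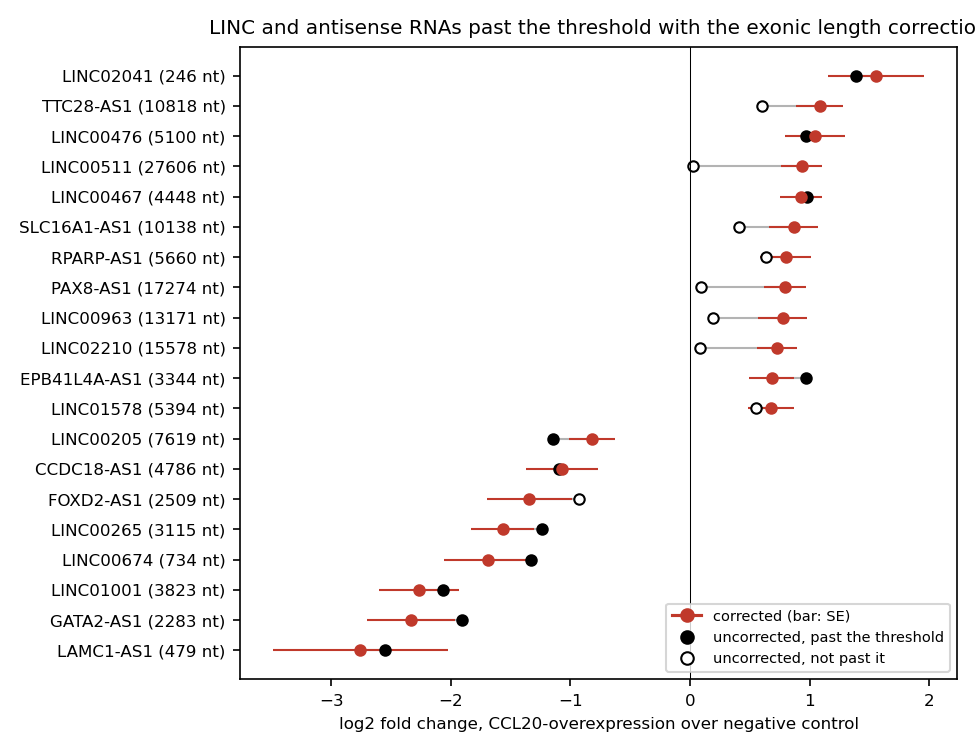
Log2 fold change, CCL20-overexpression over negative control, with the exonic length correction (red, bar is the SE) and without it (black, hollow where not past the threshold) for the 20 RNAs past the threshold with the correction; exonic length in nt stands beside each name. LINC00511 moved from 0.03 to 0.93 and LINC02041 from 1.39 to 1.56 when the correction was applied.

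Whether a read in an antisense gene came from that strand depends on how it was counted. The kit named in the labels does not mark strand, and no source used here gives the counting setting, so the tables were checked. In GENCODE 29, 294 genes of at least 200 nt lie wholly within exons of a tested gene on the other strand, and 0 of them had a row; 0 of 91 genes inside exons on the same strand had one. Among genes typed antisense, 0 of 211 inside opposite exons had a row, against 1902 of 3663 (51.9%) that share no exon base. The tables therefore hold no reads of exon stretches that genes of opposite strands share, which is how HTSeq treats ambiguous reads when strand is not used. The FPKM denominator keeps those bases, so the level of a member with shared exon is understated.

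Exon bases were shared with some gene by 115 members, 107 of them with a gene on the other strand, over a median of 10.96% of their exon length. More than 20% was shared by 31 members, among them LINC02029 (72.0%), EPB41L4A-AS1 (49.6%), MAPKAPK5-AS1 (34.6%) and TRIM52-AS1 (28.0%). In 69 members more than 50% of the unshared exon lies within the span of a gene on the other strand, where a read of that gene's unspliced RNA cannot be told apart from one of the member. Of these, 7 rose (10.1%) and 2 fell (2.90%), with a median log2 fold change of 0.27. Of the other 167, 24 rose (14.4%) and 9 fell (5.39%), with a median of 0.32. Over all tested genes 16.5% rose and 15.7% fell. PIK3CD-AS2, POLH-AS1, LAMC1-AS1, ALG13-AS1, LINC02029 and EPB41L4A-AS1 have all of their unshared exon within such a span.

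Of the 135 antisense members, 131 have a sense gene of the same symbol in the tables, and 102 of these sense genes were tested. In these 102 pairs the median log2 fold change was 0.27 for the antisense RNAs and -0.14 for the sense genes. With the length correction these medians were 0.02 and 0.01. The median exonic length was 1681.5 nt for the antisense RNAs and 5655 nt for the sense genes. Of the pairs, 10 antisense RNAs rose and 6 fell, while 16 sense genes rose and 24 fell; 16.5% of all tested genes rose and 15.7% fell. Both genes passed the threshold in 7 pairs, in the same direction in 2 and in opposite directions in 5, a count that was not tested against the number the separate calls would give. PIK3CD-AS2 and LAMC1-AS1, of these pairs, passed the level rule through 1 group. The signs were alike in 39 of 102 pairs, and Spearman's rho across pairs was -0.20 (-0.16 with the length correction), where both genes come from the same libraries and differ in length. With the correction both genes passed in 1 pair, LAMC1-AS1 and LAMC1.

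Of these 7 pairs, the farthest apart in fold change was URB1-AS1 with URB1, a ribosome biogenesis gene, which start 104 nt from each other on opposite strands and share no exon base. URB1 had 3.24 and 2.98 FPKM in the overexpression libraries, against 9.05 and 8.04 FPKM in the control libraries (log2 fold change -1.25, SE 0.17, edgeR adjusted p = 0.00433), where URB1-AS1 rose by 1.26. The log2 ratio of the antisense to the sense FPKM was 1.81 and 1.59 in the overexpression libraries, against -1.19 and -0.49 in the control libraries, so the order of the pair differed between the groups in all 4 libraries. URB1 also passed with the length correction (-0.74, edgeR adjusted p = 0.0218), while URB1-AS1 did not (0.87, edgeR adjusted p = 0.0735). URB1-AS1 also lost its call without negative control replicate 1 (edgeR adjusted p = 0.170).

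PAXIP1-AS1 and PAXIP1, a DNA damage response gene, start 364 nt apart. PAXIP1-AS1 had 5.69 and 5.89 FPKM in the overexpression libraries, against 4.24 and 4.37 FPKM in the control libraries, and PAXIP1 had 1.43 and 0.984 FPKM in the overexpression libraries, against 3.17 and 3.27 FPKM in the control libraries. Their log2 fold changes were 0.63 (SE 0.21, edgeR adjusted p = 0.0483) and -1.22 (SE 0.21, edgeR adjusted p = 0.00640). PIK3CD, with 2.47 and 2.90 FPKM in the overexpression libraries, against 5.02 and 4.76 FPKM in the control libraries, fell by 0.65 on the log2 scale while PIK3CD-AS2 inside it rose. SREBF2-AS1, which starts within the sterol regulator gene SREBF2, had 4.90 and 5.35 FPKM in the overexpression libraries, against 3.20 and 3.77 FPKM in the control libraries, whereas SREBF2 had 11.1 and 12.3 FPKM, against 20.4 and 21.0 FPKM in the control libraries. The antisense RNA was the higher gene of the PAXIP1 pair in every library, and the lower one of the PIK3CD and SREBF2 pairs. The calls of these 3 antisense RNAs were lost with the length correction (edgeR adjusted p = 0.500, 0.128 and 0.189) and when either control library was left out. Then PIK3CD (edgeR adjusted p = 0.339 and 0.253) and SREBF2 (0.319 and 0.335) lost theirs too, while PAXIP1 kept its call (0.0311 and 0.0326).

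CALML3-AS1 fell where its sense gene rose, with 3.23 and 3.35 FPKM in the overexpression libraries, against 6.15 and 5.44 FPKM in the control libraries (log2 fold change -0.61, SE 0.19, edgeR adjusted p = 0.0412). CALML3, a calmodulin-like gene of epithelia, had 8.60 and 7.44 FPKM in the overexpression libraries, against 4.74 and 4.30 FPKM in the control libraries (log2 fold change 1.03, SE 0.19, edgeR adjusted p = 0.00754). CALML3 was above its antisense RNA in both overexpression libraries and below it in both control libraries. Neither gene passed with the length correction (-0.59 for CALML3-AS1 and 0.66 for CALML3, edgeR adjusted p = 0.0648 and 0.0547) or when either control library was left out.

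In 2 pairs both genes fell. LAMC1 had 21.4 and 21.0 FPKM in the overexpression libraries, against 50.004 and 48.8 FPKM in the control libraries (log2 fold change -1.01, SE 0.15, edgeR adjusted p = 0.00490), and LAMC1-AS1 lies within it. All of the LAMC1-AS1 exon is inside the LAMC1 span, so that its 1 to 23 reads and unspliced LAMC1 reads cannot be told apart. CCDC18-AS1 had 1.95 and 0.954 FPKM in the overexpression libraries, against 3.48 and 3.57 FPKM in the control libraries (edgeR adjusted p = 0.0274), and CCDC18, whose end it overlaps over 72 exonic nt, had 2.38 and 1.67 FPKM, against 3.98 and 4.27 FPKM in the control libraries (edgeR adjusted p = 0.0218). When either control library was left out, all 4 of these genes lost their calls.

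**Figure D4:**
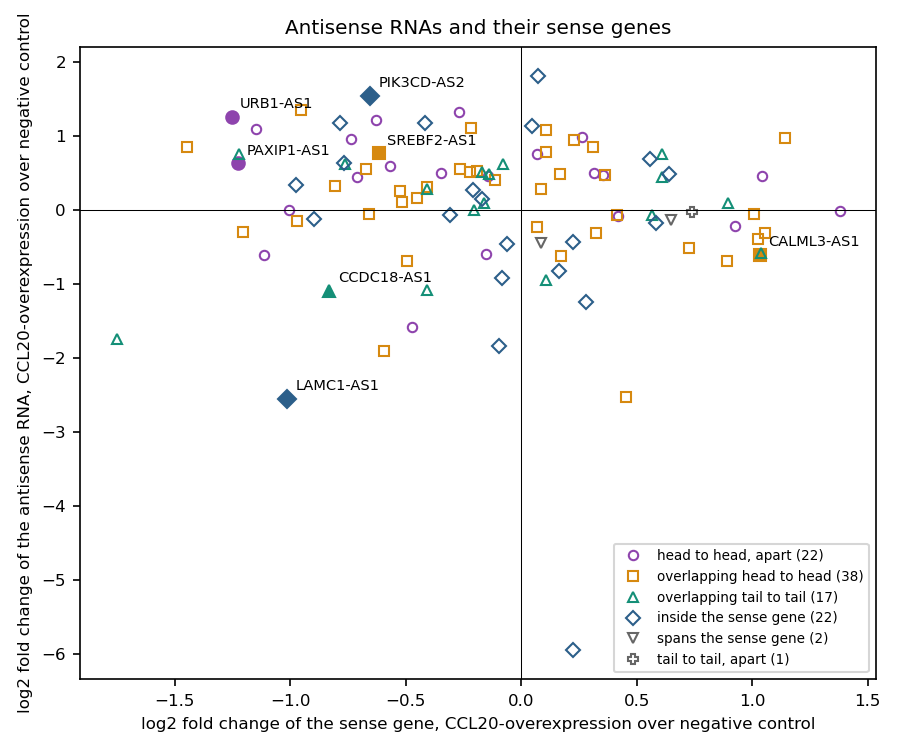
Log2 fold change, CCL20-overexpression over negative control, of the antisense RNA against that of its sense gene in 102 pairs, with symbols for their arrangement; filled and named points are the 7 pairs in which both genes passed the threshold. Points spread over all 4 quadrants, 39 of them in the 2 where the signs are alike, and the lowest point is ALG13-AS1, whose overexpression counts are 0 and whose fitted value depends on the prior count.

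By arrangement, the 22 tested pairs that start head to head without overlap had a median log2 fold change of 0.48 for the antisense RNA and -0.31 for the sense gene. The 38 that overlap head to head had 0.26 and -0.02, and the 17 that overlap tail to tail 0.09 and -0.16. The 22 with the antisense RNA inside the sense gene had 0.03 and -0.09. With the length correction the medians were, in the same order, 0.13 and -0.41, 0.04 and 0.01, 0.03 and -0.11, and -0.22 and 0.20. In the 46 pairs whose exons do not overlap, 4 had both genes past the threshold, 1 in the same direction and 3 in opposite directions. In the other 9 tested pairs with the antisense RNA past the threshold, the sense gene was not past it. GATA2 had 1.46 and 1.45 FPKM in the overexpression libraries, against 2.48 and 2.59 FPKM in the control libraries (log2 fold change -0.59, edgeR adjusted p = 0.0700), and GABPB1 had a log2 fold change of 0.17 (edgeR adjusted p = 0.575).

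In the NCBP2 and TRIM52 pairs, shown by sequence above, the antisense RNA rose and the sense gene was not past the threshold. NCBP2, a cap-binding protein gene that starts 26 nt from NCBP2-AS2, had 33.3 and 22.3 FPKM in the overexpression libraries, against 27.6 and 25.6 FPKM in the control libraries, with overlapping groups (log2 fold change 0.26, SE 0.20, edgeR adjusted p = 0.324). The log2 ratio of NCBP2-AS2 to NCBP2 FPKM was 0.19 and 1.19 in the overexpression libraries, and -0.06 and -0.00 in the control libraries, where both genes were at nearly the same level. TRIM52 had 1.43 and 0.813 FPKM in the overexpression libraries, against 1.84 and 2.12 FPKM in the control libraries (log2 fold change -0.63, SE 0.28, edgeR adjusted p = 0.111). TRIM52-AS1 was above TRIM52 in all 4 libraries, with log2 ratios of 2.75 and 3.81 in the overexpression libraries and 1.58 and 1.25 in the control libraries. The difference between the fold changes of the genes in a pair was not tested.

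LINC genes mostly start far from the starts of the coding genes listed. The median distance between starts was 54761 nt, and for 82 of 101 it was over 10000 nt. By this measure a LINC gene can still overlap a coding gene. Only 11 start head to head within 1000 nt of a coding start, 9 of them beside a tested gene. The LINC RNA passed the threshold in 4 of these 9, the coding gene in 7 and both in 3. Of all tested genes 32.2% passed it. LINC00205 starts 152 nt from POFUT2, an O-fucosyltransferase gene. POFUT2 had 2.33 and 3.17 FPKM in the overexpression libraries, against 5.96 and 6.05 FPKM in the control libraries (log2 fold change -0.91, edgeR adjusted p = 0.0183), so both genes of that pair fell. LINC00476 had 1.39 and 1.58 FPKM in the overexpression libraries, against 0.903 and 0.856 FPKM in the control libraries, while its neighbour ERCC6L2 had 2.12 and 1.44 FPKM, against 4.19 and 3.47 FPKM in the control libraries (log2 fold change -0.91, edgeR adjusted p = 0.0176). LINC01006 rose by 0.72 on the log2 scale beside RNF32, which fell by 1.16. ZC3H12A, the gene of the RNA-degrading enzyme Regnase-1 beside LINC01137, had 22.1 and 29.2 FPKM in the overexpression libraries, against 34.7 and 32.6 FPKM in the control libraries (log2 fold change -0.18, edgeR adjusted p = 0.511). The 3 pairs with both genes past the threshold thus hold 1 in which both fell and 2 in which the LINC RNA rose and the coding gene fell. With the exonic length correction LINC00205 and LINC00476 kept their calls and LINC01006 did not. Corrected calls of the coding genes are not given here, so this does not show which pairs kept both calls. When either control library was left out, no pair had both genes past the threshold: LINC00205 kept its call, and POFUT2 (edgeR adjusted p = 0.123 and 0.121), LINC00476, ERCC6L2, LINC01006 and RNF32 lost theirs. LINC00476 also passed the level rule through the overexpression group alone.

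Other long noncoding RNAs of the same libraries give a comparison. Of 761 tested genes of long noncoding type that are not members, 82 rose (10.8%) and 70 fell (9.20%), with a median log2 fold change of 0.17. Over all tested genes 16.5% rose and 15.7% fell. These 761 genes were short, with a median exonic length of 740 nt. With the exonic length correction 23 of them were higher (3.02%) and 66 lower (8.67%), and their median was -0.07. Over all tested genes 9.95% were then higher and 5.93% lower. A list of well-studied long noncoding RNAs had 20 tested genes, of which 8 rose (40.0%) and 2 fell (10.0%), with a median of 0.54. Other names on the list were not tested. The median of the mean level was 17.6 FPKM over these 20 genes and 2.05 FPKM over the members. The risen genes of the list include several hosts of small nucleolar RNAs. SNHG8 had 29.4 and 31.1 FPKM in the overexpression libraries, against 14.7 and 11.3 FPKM in the control libraries, and SNHG5 had 61.5 and 59.4 FPKM, against 29.7 and 26.4 FPKM in the control libraries. GAS5 had 46.9 and 37.3 FPKM in the overexpression libraries, against 28.0 and 27.8 FPKM in the control libraries. The 2 that fell were TUG1, with 6.15 and 5.87 FPKM in the overexpression libraries, against 13.4 and 11.9 FPKM in the control libraries, and NORAD, with 78.6 and 49.98 FPKM, against 120.2 and 110.1 FPKM in the control libraries. With the length correction SNHG5, SNHG8, SNHG15, CRNDE and NEAT1 passed, each as higher, 5 of the 20.

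The members just above the level rule were SERTAD4-AS1, LINC01023 and LINC01293, and the genes just under it were LINC00881, TNKS2-AS1 and CD27-AS1, with means of 0.992, 0.986 and 0.983 FPKM. SERTAD4-AS1 had 1.62 and 1.18 FPKM in the overexpression libraries and 0.801 and 0.446 FPKM in the control libraries. LINC01293 had 0.926 and 0.375 FPKM in the overexpression libraries and 0.866 and 1.86 FPKM in the control libraries, with 8 to 42 reads per library. TNKS2-AS1, just under the rule, had 0.685 and 1.56 FPKM in the overexpression libraries and 0.672 and 1.03 FPKM in the control libraries. The libraries of a group differ widely in these 2 genes, which rest on few reads.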

How the data were processed

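The labels gave each library its group and number. Per the submitters' processing notes, reads were processed with HISAT2 and HTSeq 0.13.5 on GRCh38; no source used here gives the annotation or the strand setting. The deposited counts are whole reads per gene. The FPKM values deposited by the authors equal count over gene length and library total; implied lengths were whole numbers within 0.0001 nt and 99.7% equalled the exonic length in GENCODE 29.

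Genes with a mean of at least 1 FPKM (12168) were tested with edgeR 4.0.16 in R 4.3.3 (glmQLFit, glmQLFTest, two-sided, Benjamini-Hochberg adjustment, threshold 0.05). TMM factors were 0.97 and 0.90 in the overexpression and 1.08 and 1.07 in the control libraries, so a gene of equal FPKM has a positive log2 fold change. The SE is the log2 fold change over the root of F. The length correction fits a spline of 5 degrees of freedom per library as an offset. Copies were found with BLAST 2.17.0. Alternatives were RLE factors, a TPM scale, DESeq2 1.42.0, limma 3.58.1, other filters, another length, a term for the replicate number and fits that lack 1 library. Scripts were tested on simulated data.

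Named genes are the 10 highest members, up to 10 largest rises and falls past the threshold, members past it with the correction, pairs past it in both genes, 3 members just above and 3 genes just under the level rule, and CCL20; sense, neighbour and listed noncoding genes serve as comparison. Members, lists and rules were chosen with earlier results of these data known. Floors and counts cover counting error only.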

Additional observations from a re-analysis of the deposited data

How the results depend on the processing

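The 31 higher and 11 lower members stayed within 1.5 times those counts with RLE factors, DESeq2, either other filter and the transcript length correction. DESeq2 called 21 members higher and 11 lower, and kept 31 of the 42 calls. The calls lost with DESeq2 include those of LINC02041, PIK3CD-AS2, POLH-AS1, LINC00641 and LINC02001. The higher count was 3 on a TPM scale and 12 with the exonic length correction; the lower count was 46 on a TPM scale and 24 and 20 with limma on log2(FPKM + 1) and log2(FPKM + 0.1). Over all genes, 2010 higher became 500 on a TPM scale, 1245 and 1176 with limma and 1211 with the exonic length correction; 1905 lower became 4516 on a TPM scale and 721 with the correction. Leaving out 1 library gave 318 to 3742 higher and 332 to 3837 lower genes, and 1 to 69 higher and 2 to 22 lower members. The members' median of 0.30 was -0.19 on a TPM scale, where that of all genes was -0.49; it was 0.057 and 0.081 with limma (all genes -0.17 and -0.21), 0.35 with no filter (all genes -0.16) or filterByExpr, 0.043 with the exonic length correction and 0.22 to 0.35 without 1 library. Only pairs with separate exons left 1 of 2 pairs in the same direction. Some RNAs not past the threshold changed sign: on a TPM scale LRRC75A-AS1 (-0.13), LINC00973 (-0.020), LINC00963 (-0.31), PAX8-AS1 (-0.40), LINC02210 (-0.41), SLC16A1-AS1 (-0.091) and LINC00511 (-0.46); with limma at pseudocounts of 1 and 0.1 LINC00963 (-0.017, -0.024), PAX8-AS1 (-0.084, -0.11), LINC02210 (-0.081, -0.12) and LINC00511 (-0.090, -0.16); with the transcript length correction PAX8-AS1 (-0.066), LINC02210 (-0.021) and LINC00511 (-0.14); and without 1 library LINC00963 (-0.0067 without overexpression replicate 2, to 0.37) and LINC00511 (-0.024 without negative control replicate 2, to 0.081). GABPB1-AS1, which fell, was 0.059 with the exonic length correction and 0.059 with the replicate block added. The causes were not tested.

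The shared replicate numbers were not taken to pair the samples, as the labels give no shared culture or day. Whether same-numbered libraries are paired is not known. There would be 2 pairs, and deviations of same-numbered libraries correlated at 0.27. With a replicate block 51 members were higher and 21 lower, and 2918 of all genes lower; with the block and the exonic length correction 32 members were lower and the median was 0.037. Each group has 2 libraries, and 37 members had under 10 reads in some library.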
